A study of Mus musculus with 34 samples.

Results

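Bcl11b is a zinc-finger transcription factor that is switched on as thymocytes commit to the T lineage, and its loss in mice lets early thymocytes take on features of natural killer (NK) and innate lymphoid cells. Thymocytes at this point are double negative (DN), lacking CD4 and CD8, and pass from the DN2 to the DN3 stage while they rearrange T-cell receptor genes. A floxed allele is flanked by recombination sites and is cut out in cells that express the Cre recombinase. Vav1-iCre is active in blood stem cells and in all their descendants, so a floxed allele is lost before the thymus is reached.

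RNA sequencing of DN thymocytes with 1 floxed Bcl11b allele was compared here with that of cells with none, both carrying Vav1-iCre. The comparison takes 6 of the 34 libraries of the series, chosen by their labels: 4 heterozygous (HET) libraries, genotype Bcl11b flx/+ Vav1-iCre, and 2 wild-type (WT) libraries, genotype Bcl11b +/+ Vav1-iCre. The WT cells thus carry the recombinase as well. A further 3 libraries with both alleles floxed (HOM, Bcl11b flx/flx Vav1-iCre) give the far end of the allele series, and 6 HET DN3 (Bcl11b flx/+ Lck-Cre) and 5 WT DN3 (Bcl11b +/+ Lck-Cre) libraries give a second comparison, in which Lck-Cre acts later, within the thymus. All cells came from C57BL6/J mice whose age is not given, and were sorted as YFP-positive and CD25-positive, YFP being a fluorescent reporter. Each library was made from 300000 cells and read as 50-nt single reads. Whether each library stands for its own animal is not given, so p-values measure the spread between these libraries, which may be technical.

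Values exist for 2076 genes, which the authors had chosen and ordered by the change of HOM against the 6 HET and WT libraries pooled as controls, per the file header. The difference between HET and WT was therefore not what put a gene on the list, but all 6 libraries entered that choice, and genes that differ between HET and WT and do not change in HOM are not represented. The listed genes held 1329826 to 1777931 counts in HET libraries and 1656737 to 2836293 in WT libraries, and the full depth is unknown. Levels are given as scaled counts, meaning CPM computed over the listed genes after scaling. Genes are termed called where the adjusted p was below 0.05 in edgeR's quasi-likelihood test with Benjamini-Hochberg adjustment over all 2076 genes. Transcripts of DN thymocytes were present throughout. The T-cell receptor complex gene Cd3d stood at 3720.4 to 4634 scaled counts in HET and at 4913 and 5587 in WT. Cd3e stood at 6513 to 8179 in HET and at 8954 and 9648 in WT, so both were lower in HET without overlap. Cd3g stood at 11401 to 16285 in HET and at 16048 and 19104 in WT, with overlap. Dntt, which adds bases at receptor gene joints, stood at 26949 to 31856 in HET and at 25800.2 and 34799.8 in WT. None of these genes was called. Ptcra, Il2ra, Thy1 and Rag1 are not among the listed genes.

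A small set of genes differed between HET and WT libraries, most of them higher in HET. HET cells had more RNA of the interleukin-9 receptor gene Il9r, the Notch-responsive repressor gene Heyl, the gluconeogenic enzyme gene Fbp1, the calcium-binding protein gene Necab1, the NK-cell receptor gene Cd160 and the granzyme gene Gzma. They had less of the sodium channel subunit gene Scn4b, the adhesion molecule gene Mpzl2 and the cell-cycle inhibitor gene Cdkn1a. In all, 46 of the 2076 genes were called (2.22%), 37 higher (1.78%) and 9 lower (0.434%) in HET, and 39 of them differed at least 2-fold (33 higher and 6 lower). All 46 had library values that did not overlap between the groups, as 22.6% of the listed genes did. The median log2 change of all listed genes was 0.02, and 274 genes had an unadjusted p under 0.05. In a bulk sample, fewer cells that make an RNA and less of that RNA per cell cannot be told apart.

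**Figure D1:**
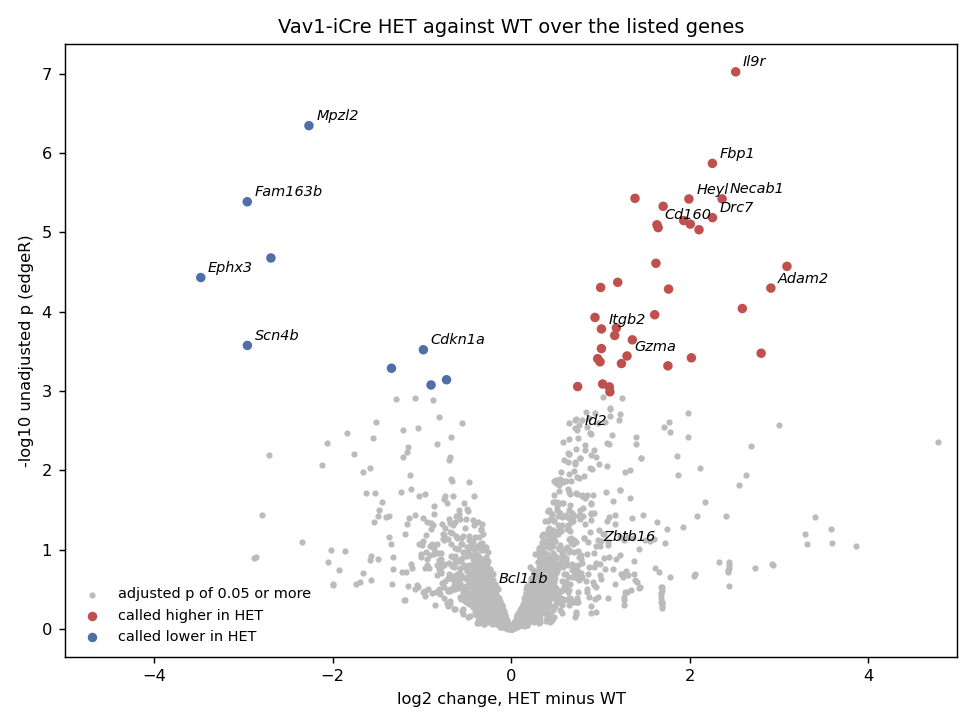
Each point is 1 of the 2076 listed genes, with the log2 change of HET minus WT on the horizontal axis and -log10 of the unadjusted p of edgeR's test on the vertical axis. The 37 genes called higher in HET are red, the 9 called lower are blue and the rest are grey, with Il9r at the top right and Bcl11b near the bottom.

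The counts rest on 2 WT libraries. Without WT replicate 1 the count was 24, without WT replicate 2 it was 28 and without HET replicate 2 it was 29, and 18 genes were called in the full comparison and each time a library was left out. With columns taken in the order of the header, its directory numbers put HET replicates 1 and 2 beside HOM libraries, HET replicate 3 beside WT replicate 1 and HET replicate 4 beside WT replicate 2. With these runs of numbers as a block, a term chosen after the data were seen, 115 genes were called, the 46 among them. HET replicates 3 and 4 alone against both WT libraries gave 21 called genes, all of them among the 46. Each of the 46 kept its direction in every setting run.

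Il9r encodes the receptor chain that binds interleukin-9, a growth factor of T cells, mast cells and innate lymphocytes. It stood at 825, 962, 1002 and 785 scaled counts in the HET libraries, against 148 and 165 in the WT libraries. All 4 HET values lie far above both WT values, and the gene had the smallest adjusted p of the comparison (log2 change 2.52, SE 0.20, 5.72-fold, adjusted p = 1.97e-04). Fbp1, the fructose bisphosphatase of sugar synthesis, had 357, 437, 315 and 267 scaled counts in HET, against 70.1 and 74.1 in WT. Its log2 change was 2.25 (SE 0.23, 4.77-fold, adjusted p = 9.35e-04). The groups were again well apart, with a narrower spread among WT than among HET libraries.

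Heyl encodes a repressor of the Hes and Hey family, whose genes are switched on by Notch signalling, the pathway that drives T-lineage development. Its scaled counts were 299, 379, 239 and 248 in HET, against 70.8 and 75.8 in WT (log2 change 1.99, SE 0.23, 3.98-fold, adjusted p = 0.00122). Necab1, which encodes a calcium-binding protein best known from neurons, had 201, 177, 137 and 132 scaled counts in HET, against 24.9 and 38.5 in WT (log2 change 2.36, SE 0.27, 5.15-fold, adjusted p = 0.00122). No HET library came near a WT library in either gene. These 4 genes had been named as markers of the comparison with earlier results of these data known, so their values are a description. An exact 2-sided permutation test of 4 against 2 libraries has 15 splits and cannot go below p = 0.133, the value that Il9r, Heyl, Fbp1 and Necab1 each gave.

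**Figure D2:**
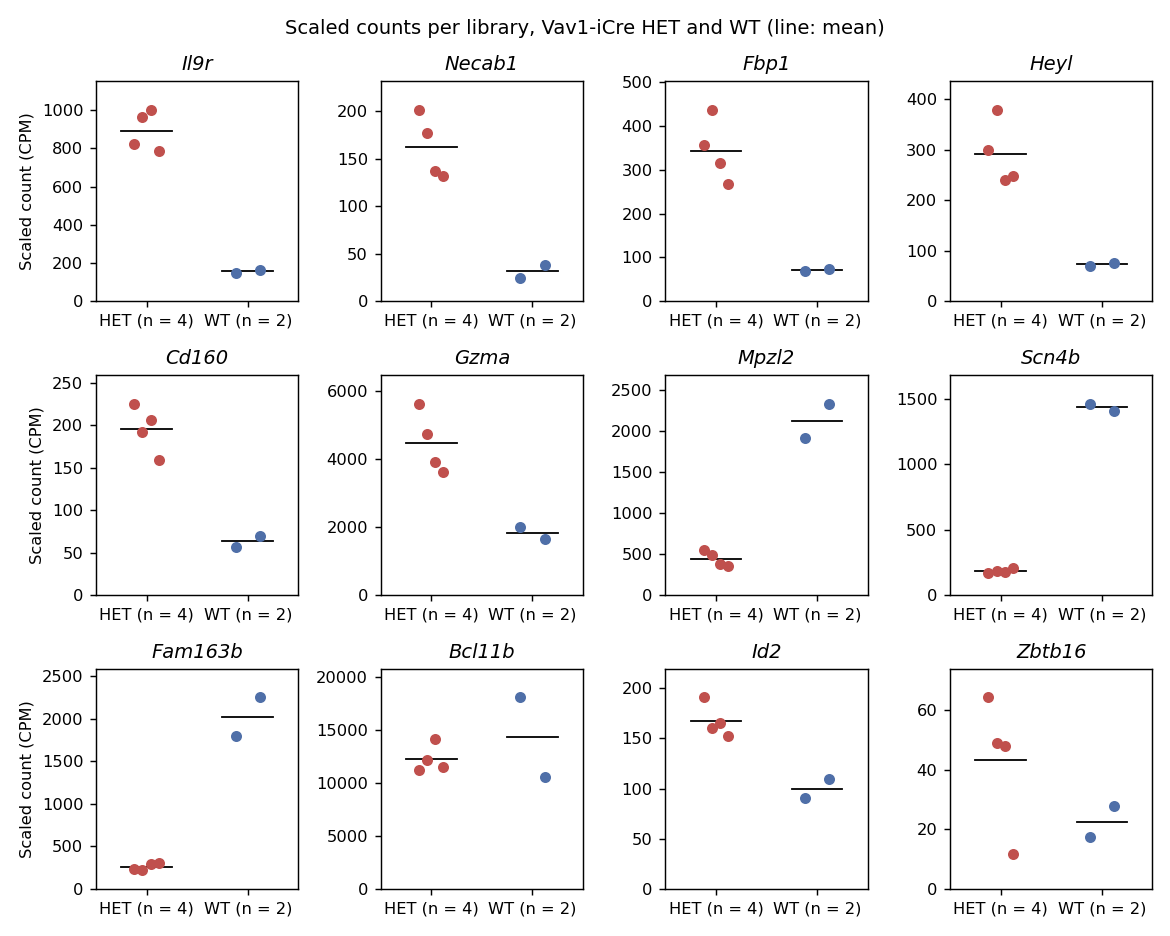
Scaled counts (CPM over the listed genes) of 12 genes, 1 point per library, in 4 HET libraries (red, left) and 2 WT libraries (blue, right), with the mean as a line and every vertical axis starting at 0. The HET points of Il9r, Necab1, Fbp1, Heyl, Cd160 and Gzma all lie above the WT points, those of Mpzl2, Scn4b and Fam163b all below, while Bcl11b and Zbtb16 overlap.

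For 4 genes called both here and with Lck-Cre, the 250 bases before the RefSeq start site (GRCm38.p6) are shown on the strand of the gene, because these are the promoters of the changes seen in both Cre lines. Capitals mark 3 motifs searched on both strands: the RUNX core TGTGGT, the E-box CAGCTG bound by E proteins, and the RBPJ core TGGGAA of the Notch pathway.
Il9r, chr11:32200280-32200529, minus strand: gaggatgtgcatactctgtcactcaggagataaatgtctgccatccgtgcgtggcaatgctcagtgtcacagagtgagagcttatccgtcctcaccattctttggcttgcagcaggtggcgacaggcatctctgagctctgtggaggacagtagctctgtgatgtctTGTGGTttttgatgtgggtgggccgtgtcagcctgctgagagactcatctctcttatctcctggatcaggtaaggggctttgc
Fbp1, chr13:62888283-62888532, minus strand: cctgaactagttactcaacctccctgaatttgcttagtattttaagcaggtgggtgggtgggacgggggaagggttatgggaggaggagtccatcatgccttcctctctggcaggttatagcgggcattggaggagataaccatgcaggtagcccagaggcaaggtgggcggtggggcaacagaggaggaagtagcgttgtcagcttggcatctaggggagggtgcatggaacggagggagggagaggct
Cd160, chr3:96829352-96829601, minus strand: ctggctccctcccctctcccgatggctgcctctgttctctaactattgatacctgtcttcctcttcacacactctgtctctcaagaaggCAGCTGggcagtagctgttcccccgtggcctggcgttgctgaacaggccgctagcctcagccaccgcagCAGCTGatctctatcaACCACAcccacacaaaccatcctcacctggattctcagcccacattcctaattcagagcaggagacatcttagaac
Ephx3, chr17:32189471-32189720, minus strand: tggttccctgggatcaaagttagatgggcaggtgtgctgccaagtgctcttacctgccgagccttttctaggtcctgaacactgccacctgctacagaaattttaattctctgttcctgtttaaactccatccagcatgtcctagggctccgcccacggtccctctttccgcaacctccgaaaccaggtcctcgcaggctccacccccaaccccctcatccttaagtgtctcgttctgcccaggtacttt
The RUNX letters occur once before Il9r, and the Cd160 window holds 1 RUNX match and 2 E-boxes. None of the 3 motifs, in the letters given, is in the Fbp1 or Ephx3 window. Other forms of the motifs were not searched, so other binding sites may be present. Promoters were found for 30 of the 46 called genes. The RUNX letters were in 4 of the 23 promoters of genes called higher, the E-box in 4 and the RBPJ letters in 3. In the 7 promoters of genes called lower these counts were 0, 1 and 1. Of all 27025 promoters in RefSeq's set, 14.2% held the RUNX letters, 12.8% the E-box and 21.5% the RBPJ letters.

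By size of change, the higher genes named include 5 more, and most of them are known from tissues other than the thymus. Adam2, a sperm surface protein gene, had 142, 176, 129 and 129.8 scaled counts in HET, against 8.31 and 31.4 in WT (log2 change 2.91, SE 0.45, adjusted p = 0.00490). Drc7, a subunit gene of the dynein regulatory complex of cilia, had 1128, 1033, 715 and 662 in HET, against 151 and 219.8 in WT, a 4.78-fold difference. Adgrg3, an adhesion G-protein-coupled receptor gene of leukocytes, had 2183, 2223, 2012 and 2571 in HET, against 568 and 813 in WT. The taste receptor gene Tas1r1 differed 4.02-fold and the oestrogen-responsive gene Greb1 4.30-fold. HET libraries stood above WT libraries without overlap in these 5, and each kept its call whichever library was left out.

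Several higher genes belong to lymphocytes. Cd160, which encodes an immunoglobulin-like receptor of NK and other cytotoxic cells, had 226, 193, 206 and 159 scaled counts in HET, against 57.1 and 69.3 in WT (log2 change 1.63, SE 0.20, adjusted p = 0.00138). Gzma, a granzyme gene that is also active in early DN thymocytes, had 5629.9, 4736, 3920.4 and 3614 in HET, against 1999 and 1639 in WT (log2 change 1.30, SE 0.25, 2.46-fold, adjusted p = 0.0221), and it lost the call without either WT library and without HET replicate 2. Itgb2, the shared chain of the leukocyte integrins, had 931, 1012, 908 and 898 in HET, against 517 and 412 in WT (log2 change 1.01, SE 0.18, adjusted p = 0.0127), and lost the call without WT replicate 2 and without HET replicate 2. Sidt1, a transmembrane protein gene, was 3.13-fold higher and Frmd4b, a scaffold protein gene, 2.36-fold higher. The transcript 2900026A02Rik was 3.05-fold higher, with 1072, 1109, 1073 and 574 in HET, against 346 and 281 in WT, so that HET replicate 4 lay well under the other HET libraries. Frmd4b lost its call without WT replicate 1 and without HET replicate 1 or 2, and 2900026A02Rik lost it without either WT library.

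The 21 called genes that the naming rule did not take were named after their values were seen, and 21 of 21 were higher in HET, by log2 changes between 0.75 and 3.09. Adam19, a cell-surface metalloprotease gene, had the largest, with 52.3, 38.9, 26.5 and 22.9 scaled counts in HET, against 3.98 and 4.15 in WT. Tnfsf8, the ligand gene of the lymphocyte receptor CD30, had 28.0, 25.9, 28.0 and 25.3 in HET, against 13.4 and 11.3 in WT, and its adjusted p of 0.0462 was the closest to the threshold. Slc45a3 and Kifc3, a solute carrier and a kinesin motor gene, were 3.08-fold and 2.62-fold higher and kept their calls whichever library was left out. The others were Arsi, Ccdc102a, Col15a1, Colq, Cpne2, Dapk2, Ddc, Dennd3, Ephx2, Mtss1l, Scn10a, Slc25a53, Trf, Vrtn, Wdr25, Zcchc18 and 1700112E06Rik. They include transferrin (Trf), collagen XV (Col15a1) and the collagen tail of acetylcholinesterase (Colq).

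Of the 9 lower genes, 6 differed at least 2-fold. Scn4b, which encodes an auxiliary subunit of voltage-gated sodium channels, had 167, 186, 177 and 209 scaled counts in HET, against 1462 and 1405 in WT (log2 change -2.95, SE 0.55, 7.75-fold lower, adjusted p = 0.0185). HET and WT were far apart and each group was tight, yet the call was lost in every fit without a WT library or without HET replicate 1, 2 or 3, with adjusted p-values up to 0.0873, and with DESeq2 (adjusted p = 0.0814). Fam163b, a membrane protein gene, had 229, 220.3, 290.3 and 302 in HET, against 1791 and 2249 in WT (log2 change -2.96, SE 0.34, adjusted p = 0.00122). Mpzl2, an immunoglobulin-family adhesion molecule gene expressed in the thymus, had 546, 483, 383 and 355 in HET, against 1916 and 2330.3 in WT (log2 change -2.26, SE 0.21, adjusted p = 4.70e-04). These 2 genes kept their calls whichever library was left out.

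Ephx3, an epoxide hydrolase gene, had 7.57, 2.25, 5.74 and 6.18 scaled counts in HET, against 52.4 and 68.1 in WT, the largest fall of the comparison (log2 change -3.48, SE 0.51, adjusted p = 0.00429). Atoh8, a basic helix-loop-helix factor gene, had 27.3, 32.1, 17.2 and 24.1 in HET, against 130 and 197 in WT (log2 change -2.69, SE 0.37, adjusted p = 0.00292). Both kept their calls whichever library was left out. Cdkn1a, which encodes the cyclin-dependent kinase inhibitor p21, had 458, 444, 376 and 505 in HET, against 888 and 875 in WT, close to 2-fold lower (log2 change -0.98, SE 0.19, adjusted p = 0.0196). Espnl, an espin-like actin-bundling protein gene, fell by 1.34 on the log2 scale, Ptms, the parathymosin gene, by 0.90 and Pcmtd1, a methyltransferase-domain gene, by 0.72. Cdkn1a, Espnl, Ptms and Pcmtd1 were called in a single fit of those that left out a library, the fit without HET replicate 4.

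The gene that was deleted showed no called difference. Bcl11b (chromosome 12, 109148613 to 109241624, build mm9, minus strand) had 11214, 12177, 14164 and 11494 scaled counts in HET, against 18045 and 10536 in WT. WT replicate 1 lay above all HET libraries and WT replicate 2 below them (log2 change -0.22, SE 0.21, adjusted p = 0.749), and the change was 0.22 without WT replicate 1 and -0.56 without WT replicate 2. In HOM the gene still had 4682 to 5124 scaled counts. Counts were summed over all exons of the gene, so RNA from an allele that has lost an exon can still be counted, and this value does not measure intact Bcl11b RNA.

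Id2 and Zbtb16, the 2 genes that the study's title names as repressed by Bcl11b, were not called. Id2 encodes an inhibitor of E proteins that marks innate lymphoid fates. It had 191, 160.0, 165 and 152 scaled counts in HET, against 90.3 and 109.6 in WT. The groups did not overlap, but the log2 change of 0.74 (SE 0.19) had an adjusted p of 0.0829. With the block on runs of header numbers the adjusted p was 0.0434, and with DESeq2 it was 0.0441. Zbtb16, which encodes the innate-lymphocyte factor PLZF, had 64.4, 49.0, 48.0 and 11.7 in HET, against 17.3 and 27.8 in WT. HET replicate 4 lay below both WT libraries and the other HET libraries above them (log2 change 0.95, SE 0.51, adjusted p = 0.497). Without HET replicate 4 the gene was called at a log2 change of 1.27 (adjusted p = 0.0388).

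Gene lists chosen with earlier results known were counted against the background of 2.22% called. Of 14 listed genes of T-lineage identity and T-cell receptor signalling none was called. Their median log2 change was -0.02, beside 0.02 for all listed genes. Summed, they had 81180 to 86967 scaled counts in HET and 88518.5 and 98760 in WT, lower in HET without overlap. Among them Cd3d and Cd3e alone were lower in HET without overlap, and Cd8a was higher without overlap. Bcl11b, Dntt, Lat, Cd3g and the rest overlapped. Dntt and the Cd3 genes are also on the list of DN3 and later stages given below, so these 2 sums are not independent. Of 9 Notch pathway genes 1 was called, Heyl. The classical Notch targets Hes1 and Dtx1 and the receptor gene Notch3 were not called, with log2 changes of 0.27, 0.23 and -0.68 (adjusted p = 0.550, 0.677 and 0.126), and Notch3 stood at 7465 to 11853 scaled counts in HET, against 16768 and 13018 in WT, without overlap. Of 16 cytokine receptor and signalling genes 1 was called, Il9r. Interferon, interleukin-4 and interleukin-12 receptor genes (Ifngr1, Il4ra, Il12rb1) had log2 changes of -0.07, 0.65 and 0.52 and were not called. Of 16 chemokine receptor and homing genes 1 was called, Itgb2.

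Of 28 listed NK and type 1 innate lymphoid genes 2 were called, both higher, Cd160 and Gzma, and the median log2 change was 0.34. The summed scaled count of the list was 5271 to 7815 in HET and 3298 and 3791 in WT, and Gzma was its largest member in every library. Without Gzma the other 27 genes summed to 1657 to 2186 in HET and 1659 and 1792 in WT, with overlap. Of the 9 listed genes of Ncr1 and the Klr receptor family, 4 (Ncr1, Klrc2, Klre1 and Klri2) had no count in any of the 6 libraries, and the other 5 (Klrb1a, Klrd1, Klrk1, Klrc1 and Klra7) had at most 5.42 scaled counts in a library. The 9 summed to 4.54, 3.94, 2.87 and 0 in HET, against 5.78 and 7.70 in WT. The part of NK cells in the levels of Cd160 and Gzma was not tested. Of 8 PLZF and innate-like T genes, 6 gamma-delta T genes and 4 genes of E proteins and Id factors none was called. Their medians were 0.38, 0.26 and 0.24. The PLZF list summed to 2482 to 2863 in HET and 2128 and 2238 in WT, without overlap. Of this, Slamf6 had 1050 to 1330 in HET and 879 and 1013 in WT. Il12rb1 had 642 to 663 in HET and 410 and 496 in WT. These genes did not overlap, while the other members, Zbtb16 among them, did. The gamma-delta list summed to 7486 to 11580 in HET and 4744 and 5878 in WT, also without overlap. Of this, Cd163l1 had 4111 to 8955 in HET and 1499 and 3742 in WT. The sums of E protein and Id genes overlapped. Of 2 type 2 and type 3 innate lymphoid genes 1 was called, Il9r.

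Few stage genes were called. Of 10 genes of the early (DN2) stage 1 was called, Gzma, higher, and the median was 0.41. The stem and DN2 receptor gene Kit had 2055, 2014, 1958 and 1528 scaled counts in HET, against 1576 and 1444 in WT (log2 change 0.32, adjusted p = 0.502), and HET replicate 4 lay between the WT libraries. Of 14 genes of DN3 and later stages 1 was called, Scn4b, lower, and the median was -0.17. Summed over the lists, DN2 genes had 5621 to 8377 scaled counts in HET and 3559.8 and 4058 in WT, and DN3 genes 70803 to 73771 in HET and 81559 and 90447 in WT, without overlap in either. Without Gzma the other 9 DN2 genes summed to 2007 to 2747 in HET and 1921 and 2059 in WT, with overlap. The part of cell stage in the called differences was not tested. Of 8 stem and progenitor genes none was called (median 0.15).

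Of 16 ion channel and calcium-binding genes 2 were called higher, Necab1 among them, and 1 lower, Scn4b, with a median of -0.12. Of 6 genes of sugar, amino acid and lipid metabolism 1 was called, Fbp1, and the gluconeogenic gene Pck2 had a log2 change of -0.14 (adjusted p = 0.814). Of 2 cell-cycle genes and 3 survival and p53 target genes, Cdkn1a, which is on both lists, was the 1 called. The p53 target Phlda3 had a log2 change of 0.26 (adjusted p = 0.764). The only listed Bcl11b cofactor gene, Runx2, had a log2 change of -0.23 (adjusted p = 0.864).

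Markers of other cells were counted as well. None of 10 mature T, 7 B-cell, 6 myeloid, 3 erythroid and platelet and 2 epithelial markers was called, and mast-cell markers are not among the listed genes. Summed scaled counts of mature T markers were 4539 to 5488 in HET and 5158 and 5825 in WT. This sum mostly follows its largest member, Ifngr1, which had 3863 to 4680 in HET and 5106 and 4158 in WT. B-cell markers summed to 648 to 736 in HET and 678 and 708 in WT. Most of that was Cd79b, with 457 to 543 in HET and 534 and 559 in WT. Myeloid markers summed to 149 to 413 in HET and 341 and 376 in WT. The epithelial markers Epcam and Cldn4 summed to 1304 to 1420.0 in HET and 1309 and 1447 in WT, and the erythroid and platelet markers to 74.6 to 119 in HET and 72.6 and 121 in WT. The summed counts of HET and WT overlap for each of the 5 lists. In HOM, Epcam and Cldn4 summed to 78.9 to 102. Whether their RNA came from epithelial cells or from the thymocytes themselves was not tested. Immediate-early and heat-shock genes varied widely between libraries of each genotype. None of 7 was called, and their sum was 51745, 18929.5, 7855 and 2711 in HET replicates 1 to 4, against 13680 and 5087 in WT. The heat-shock gene Hspa1a had 17814, 5771, 1726 and 279 in HET, against 4001 and 710.4 in WT, and it shares reads with its near-identical copy Hspa1b. Their part in the called differences was not tested.

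Set beside both ends of the allele series, HET cells lay between WT and HOM for most called genes. This held for 44 of the 46, 36 higher and 8 lower, and for 70.6% of all listed genes. Because the list was chosen on the change in HOM, part of this order is fixed by the choice, and all 2076 genes (100%) were called between HOM and HET, a contrast that shares the HET libraries. Il9r averaged 156 ± 11.96 scaled counts in WT (SD, n = 2), 894 ± 105 in HET (n = 4) and 2486 ± 297 in HOM (n = 3). On the log2 scale HET had covered 63.0% of the distance between WT and HOM for Il9r, 55.6% for Fbp1, 38.7% for Heyl and 36.3% for Necab1. Over the 44 genes this share ran from 18.4% (Arsi) to 63.1% (Adgrg3), with a median of 40.3%. For Id2 the share was 19.7% and for Zbtb16 14.3%. Id2 and Zbtb16 averaged 99.98 and 22.6 scaled counts in WT, 167 and 43.3 in HET and 1356 and 2256 in HOM.

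Ptms and Mtss1l did not follow this order. Ptms averaged 672 scaled counts in WT, 361 in HET and 1228 in HOM, so that it was lower with 1 floxed allele and higher with both. Mtss1l, which encodes a protein of the membrane-bending metastasis suppressor family, averaged 186 in WT, 378 in HET and 132 in HOM, the reverse pattern. Its HET libraries stood at 341, 364, 404 and 402, against 189 and 182 in WT. Neither call held in more than 1 of the 6 fits that left out a library, with adjusted p-values up to 0.197 for Ptms and 0.193 for Mtss1l.

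**Figure D3:**
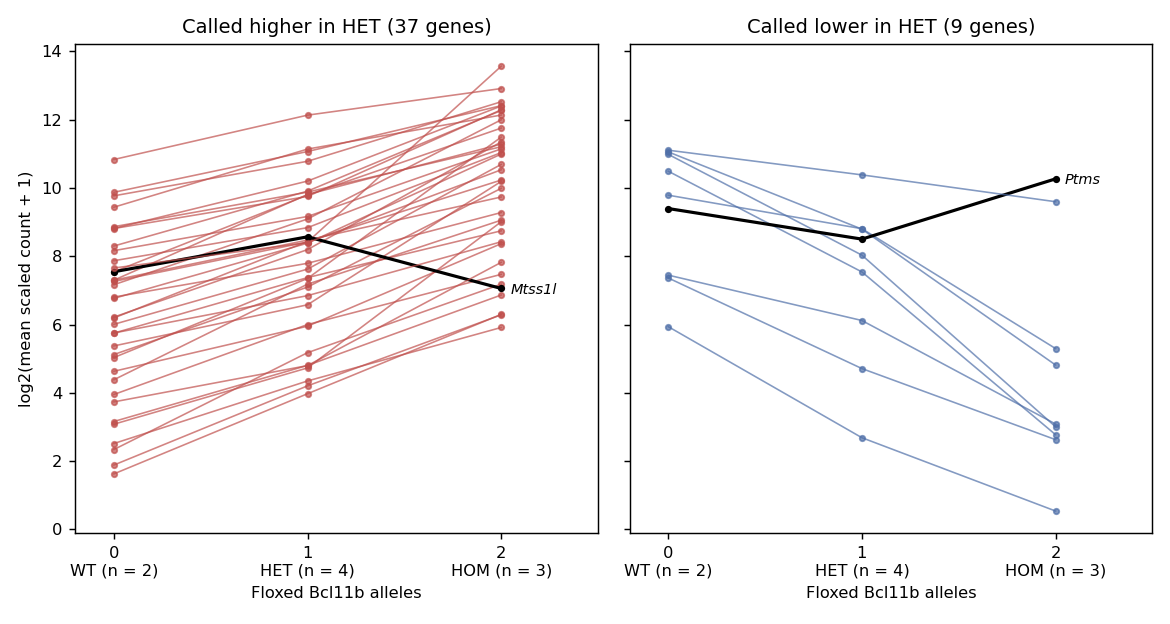
Mean levels, as log2 of the scaled count plus 1, of the 37 genes called higher (left, red) and the 9 called lower (right, blue) in HET, at 0, 1 and 2 floxed alleles (2 WT, 4 HET and 3 HOM libraries), 1 line per gene. Lines run steadily up or down in 44 genes, and the black lines are Mtss1l and Ptms, whose HET level lies outside the range of WT and HOM.

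Some called genes lie next to each other in the genome, which was noticed after their values were seen. Counting neighbours whose starts are within 500 kb (build mm9), 13 of the 46 called genes fell in 5 runs. The same count over all 2076 listed genes was not made, so whether 13 is above their share is not known. The longest run is on chromosome 8, from 97056928 to 97666440. It holds Cpne2, Ccdc102a, Adgrg5, Adgrg3, Drc7 and Kifc3, the 6 listed of 19 genes counted there. All but Adgrg5 were called, with log2 changes of 1.19, 1.36, 1.70, 2.26 and 1.39 in that order without Adgrg5, which had 1.07 (adjusted p = 0.147). They encode unlike proteins: a copine, a coiled-coil protein, adhesion receptors, a ciliary subunit and a kinesin. In all, 6 of the 46 called genes are on chromosome 8, as are 84 of the 2076 listed genes.

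On chromosome 9, between 44850427 and 44962144, lie Mpzl2 and the sodium channel subunit genes Scn2b and Scn4b. Mpzl2 and Scn4b were called lower, and Scn2b, with a mean of 74.1 scaled counts in HET against 233 in WT, had a log2 change of -1.65 (adjusted p = 0.164). On chromosome 14, Adam2 and the epoxide hydrolase gene Ephx2, with log2 changes of 2.91 and 2.02, lie between 66646159 and 66743359. Slc25a53 and Zcchc18 on the X chromosome have overlapping spans on opposite strands, with log2 changes of 1.18 and 1.10. Whether reads of each were counted for the other was not tested.

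**Figure D4:**
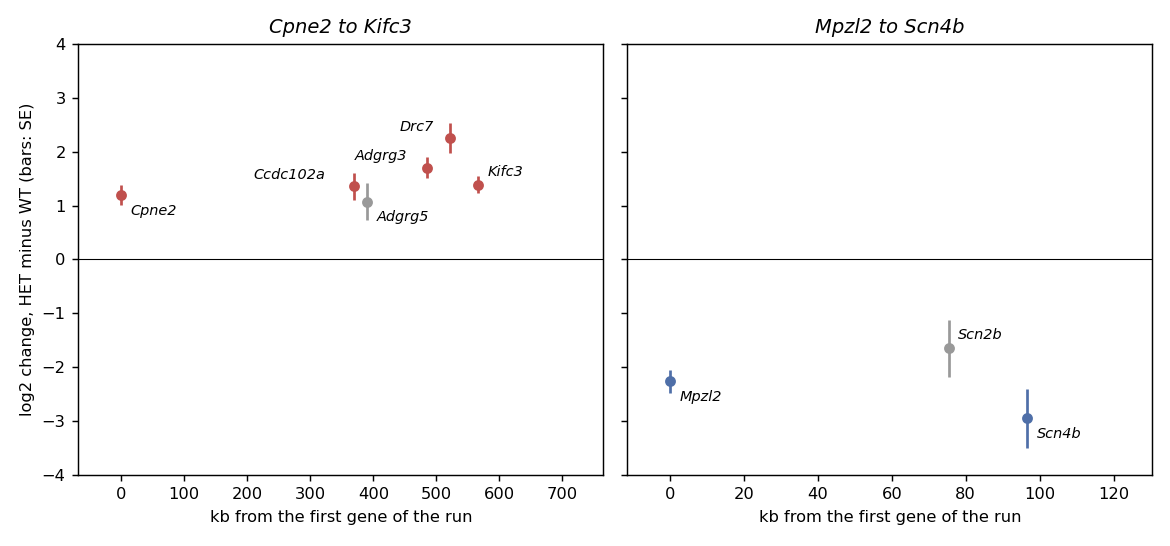
Log2 change of HET minus WT with its SE (bars) for the listed genes of 2 runs of neighbours, against the distance in kb from the start of the first gene, with genes called higher in red, called lower in blue and not called in grey. The genes around Drc7 all lie above 0 and those from Mpzl2 to Scn4b all below.

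Whether the same genes change when 1 allele is lost later was asked in the Lck-Cre libraries, which share no library with the Vav1-iCre ones. Labels of the Vav1-iCre libraries give no stage, so stage and time of loss cannot be told apart between the lines. The Lck-Cre groups used are DN3. There 865 of 12235 genes tested were called between HET DN3 and WT DN3 (7.07%), and of the 1590 listed genes tested there 138 were (8.68%), 115 higher (7.23%) and 23 lower (1.45%). Of the 46 called genes 43 were tested, and 12 were called in the same direction: Arsi, Cd160, Fbp1, Frmd4b, Heyl, Il9r, Kifc3, Necab1, Sidt1 and 2900026A02Rik higher, and Ephx3 and Fam163b lower. These 12 are 27.9% of the 43 and 8.70% of the 138, and none was called in the opposite direction. In sign, 34 of 34 higher genes and 7 of 9 lower genes went the same way, beside 78.4% of 827 higher and 64.3% of 760 lower genes among all listed genes tested in both. The list was chosen on the change in HOM, and how far that aligns the signs was not tested. In 6 of the Lck-Cre libraries, HET DN3 replicates 2 and 3 among them, transcripts of epithelium were found, and in HET DN3 replicate 1 and 1 WT DN2 library those of mature T cells. The marker values behind this choice of libraries are not given here. Without the 6, 9 of 9 lower genes went the same way (71.7% of all 741), and without all 8, 8 of 9 did (67.3% of all 736). Without the 6, 63 listed genes were called (4.07% of 1548), and 10 of the 12 held, the exceptions being Sidt1 and Fam163b. Without all 8, 42 listed genes were called and Fam163b alone of the 12 was not.

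Il9r had 5.83 RPKM (reads scaled by exon length and library total) at its lowest, a median of 12.5 and 19.2 at its highest in the 6 Lck-Cre HET DN3 libraries, against 3.96, 3.74, 2.94, 3.12 and 3.46 in WT DN3 (log2 change 1.80, SE 0.42, edgeR adjusted p = 0.0258). Necab1 had 1.29, 1.87 and 2.26 RPKM at the same points in HET DN3, against 0.336, 0.404, 0.221, 0.377 and 0.318 in WT DN3 (log2 change 2.38, SE 0.33, adjusted p = 0.00110). Neither gene's groups overlap. The lowest and highest Il9r values came from HET DN3 replicates 2 and 3, where transcripts of epithelium were found. HET DN3 replicates 4, 5 and 6 had 12.4, 13.3 and 12.6 RPKM of Il9r. Cd160 changed by 1.83 (SE 0.20, adjusted p = 6.68e-05), Heyl by 1.64 and Fbp1 by 2.199 in Lck-Cre HET DN3. Fbp1 ranged widely there, from 4.66 RPKM in HET DN3 replicate 1 to 26.8 in replicate 3, against 2.002 to 3.54 in WT DN3. Replicate 1 held transcripts of mature T cells and replicate 3 those of epithelium. HET DN3 replicates 4, 5 and 6 had 16.8, 7.72 and 12.6 RPKM of Fbp1. Ephx3 had 0 to 0.391 RPKM in HET DN3, against 1.09 to 2.95 in WT DN3 (log2 change -3.15, SE 0.69, adjusted p = 0.0254), and Fam163b had 7.44 to 21.1 RPKM, against 32.7 to 69.3. WT DN3 replicate 5 stood apart in some called genes and was kept in every fit. It had 3.96 RPKM of Drc7 and 14.5 of Adgrg3, against 0.194 to 0.314 and 1.78 to 2.23 in the other WT DN3 libraries. For Il9r, Heyl and Kifc3 it lay within the range of those libraries. Its part in which genes were called with Lck-Cre was not tested.

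Among the 46 genes, Mpzl2 had the largest fitted difference between the lines. In Lck-Cre HET DN3 it had 12.8 to 55.9 RPKM, against 35.5 to 52.9 in WT DN3, with overlap (log2 change -0.41, SE 0.44, adjusted p = 0.556), beside -2.26 in Vav1-iCre HET. The test of the difference between the lines gave -1.85 (95% interval -3.16 to -0.53) and did not pass (adjusted p = 0.633). Id2 was called in Lck-Cre HET DN3, with 6.54, a median of 13.9 and 49.7 RPKM, against 3.40 to 4.79 in WT DN3 (log2 change 2.22, adjusted p = 0.0383), not without the 6 libraries (1.37, adjusted p = 0.127), and again without all 8 (1.12, adjusted p = 0.0228). Its difference between the lines was -1.47 (95% interval -2.58 to -0.35, adjusted p = 0.650). For Necab1 the difference was -0.01 (-0.46 to 0.44), for Cd160 -0.19 (-0.82 to 0.43), for Heyl 0.36 (-0.37 to 1.09) and for Il9r 0.72 (0.04 to 1.40), these intervals being unadjusted. Over 2066 genes none passed edgeR's test of the difference (0%), 147 having an unadjusted p under 0.05, and 8 of the 46 called genes were among those 147. A miss here does not show that the lines act alike, since the median absolute difference of the 46 was 0.64 on the log2 scale.

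**Figure D5:**
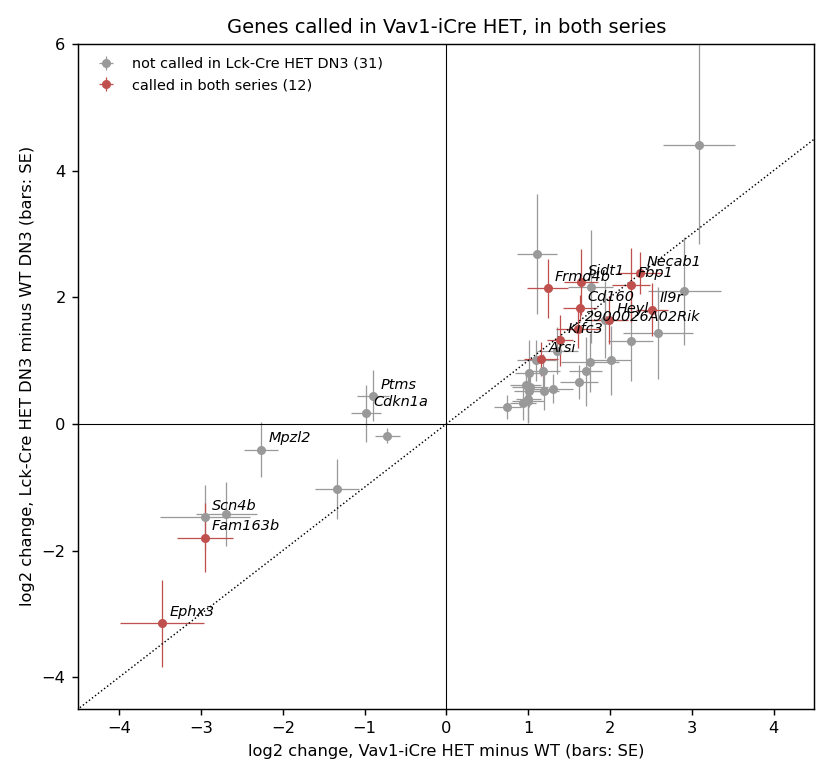
Log2 change of HET minus WT with Vav1-iCre (horizontal) against that of HET DN3 minus WT DN3 with Lck-Cre (vertical) for the 43 of the 46 called genes tested in both, with SE as bars and equality as a dotted line. The 12 genes called in both are red, the other 31 grey, and Ptms and Cdkn1a are the points that lie below 0 with Vav1-iCre and above 0 with Lck-Cre.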

How the data were processed

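The deposited values are raw counts per gene over exons from HOMER on mm9, unadjusted for depth and condensed to a single entry per gene, per the file headers. Tools listed in the submitters' processing notes are edgeR 3.6.8, HOMER, RSEM 1.2.25, STAR 2.4.0 and Trimmomatic 033, with roles not given. In the Vav1-iCre table only genes selected between HOM and the HET and WT libraries together are listed, and columns were matched to header numbers by their order. For Lck-Cre libraries, 10 of 25 columns were shifted past 26 missing symbols and were restored, and 24365 genes were kept after 114 with unsettled order were dropped. RPKM were computed here from those deposited counts and gene lengths.

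Scale factors came from TMM within HET and WT and within HOM, with the gap in HOM changes centred on 0 between them. edgeR 4.0.16 (R 4.3.3) fitted all 9 libraries as 3 groups and tested HET minus WT, 2-sided. SE is the absolute log2 change over the square root of F. The Lck-Cre fit was limited to genes reaching a group mean RPKM of 1, and the test between lines took the genes in both tables with at least 10 counts in total. The scripts were tested on simulated data.

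The genes named were Bcl11b, Id2, Zbtb16 and 4 markers, up to 10 called genes per direction by size of change with a mean scaled count of at least 50 and no overlap, up to 4 called members of each list by adjusted p, and up to 8 genes called in both lines. Comparison, members and lists were chosen with earlier results of these data known. Neighbours, the block on header numbers, the fit of HET replicates 3 and 4 and the fit without WT replicate 2 and HET replicate 4 were added after seeing the data. Alternatives changed the scaling, filter, tool, block and libraries. Promoter sequences are from RefSeq, GRCm38.p6, matched by symbol, and genes without an entry have none shown. Some results are not reported here.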

Additional observations from a re-analysis of the deposited data

Results flagged for a closer look

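Of the 28 genes that the naming rule took, 1 had a HET library far from the other 3. The transcript 2900026A02Rik had 574 scaled counts in HET replicate 4, against 1072 to 1109 in the other HET libraries and 281 and 346 in WT. The gap to the next HET library was larger than Dixon's 95% limit for 4 values, which chance passes in about 1 group in 20. Its cause was not tested.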

How the results depend on the processing

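Among the 46 called genes, 46 kept their direction in every setting run. Against 46 called (37 higher, 9 lower), DESeq2 called 112 (86 higher, 26 lower) and the block on header numbers 115 (95 and 20), while HET replicates 3 and 4 alone gave 21 (17 and 4). Leaving out each library gave 24 to 63 called genes, 18 to 50 of them higher and 4 to 13 lower. Other scalings, limma-voom, a filter on low counts, HET and WT libraries without HOM, and the fit without WT replicate 2 and HET replicate 4 gave 39 to 60 called genes. The log2 change of Bcl11b (-0.22) was 0.22 without WT replicate 1 and, over the fits that left out a library, ran from -0.56 to 0.22. In the Lck-Cre comparison the 138 called listed genes became 63 without 6 libraries and 42 without 8. The causes were not tested.

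Same-numbered libraries share only a number. The residuals of 2 WT libraries mirror each other, so their correlations with HET residuals cannot show pairing: WT replicate 1 had r = 0.29 with HET replicate 1 and WT replicate 2 had r = -0.27 with HET replicate 2, while the largest was 0.55, of WT replicate 2 with HET replicate 4. Blocking on replicate number gave 66 called genes, 38 of them among the 46. With 2 WT libraries and only listed genes, the depth and the spread of WT limit what could be called. P-values of the single-gene exact permutation tests, as run, cannot go below 0.133.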

Other observations

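With the runs of header numbers as a block, 69 further genes were called, 58 higher and 11 lower in HET. The scavenger-receptor gene Cd163l1, known from gamma-delta T cells, had 4111, 4371, 7878 and 8955 scaled counts in HET, against 1499 and 3742 in WT (log2 change with the block 1.69, adjusted p = 0.00642, and 1.27, adjusted p = 0.163, without it). The B-cell receptor co-receptor gene Cd72 had 286, 287, 229 and 451 in HET, against 108 and 187 in WT (block log2 change 1.17, adjusted p = 5.16e-04). Notch3, the Notch receptor gene that rises as cells enter the DN3 stage, was called lower with the block (-0.59, adjusted p = 0.0248). The phosphatase gene Cdc25b, which starts mitosis, had 2903, 2627, 2669 and 1326 in HET, against 1807 and 755 in WT (block log2 change 0.68, adjusted p = 0.0108), so that HET replicate 4 lay below WT replicate 1. All these p-values are from edgeR, and these genes were chosen after their values were seen.

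The genes below are examples in which HET replicate 4 lay near WT replicate 2, under all the other HET and WT libraries. With 2 WT libraries it cannot be said which of them departs from the group. How many listed genes show this pattern is not given. The D-type cyclin gene Ccnd2 had 2401 scaled counts in HET replicate 4 and 2499.8 in WT replicate 2, against 4403, 4850.3 and 5011 in the other HET libraries and 4868 in WT replicate 1. The interleukin-12 receptor gene Il12rb2 stood at 366 in HET replicate 4 and 347 in WT replicate 2, against 704 to 827 in the other HET libraries and 706 in WT replicate 1. Neither gene was called between HET and WT.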
